A study of Homo sapiens with 14 samples.

Results

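A set of 10 nuclear genes, whose proteins transcribe or copy the mitochondrial genome or act on the fate of its RNA, was followed in CWR22Rv1, a human prostate cancer cell line. They were chosen by name from the count tables, 10 of the 27819 genes that the 4 tables share, and the comparison asked whether this machinery moves together with the mitochondrial transcripts. POLRMT, TFAM, TFB2M, TEFM, TFB1M, POLG, LRPPRC, SLIRP and PNPT1 were found by symbol, and FASTKD4 under its other symbol TBRG4. All 10 passed the filter on low counts in each comparison. Treatment lasted 72 h. There were 3 libraries each of vehicle (DMSO), of Fucotrim I at 30 μM, of SGN-2FF at 100 μM and of P-SiaFNEtoc at 2 μM, and 2 of Fucotrim II at 60 μM. The Fucotrims are derivatives of phosphorylated rhamnose made to block GMDS, an early enzyme of GDP-fucose synthesis. SGN-2FF is a fluorinated fucose that enters the fucose salvage pathway, and P-SiaFNEtoc is a fluorinated sialic acid that blocks sialylation. The labels name each library a biological replicate of a single line, so the results describe 1 line at 1 dose and 1 time per inhibitor.

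Mitochondrial DNA is a small circle that encodes subunits of the respiratory chain, the ribosomal RNAs of the organelle and its tRNAs. Its transcription needs only proteins made from nuclear genes. TFAM bends and packages the DNA at the promoters, TFB2M opens the promoter, POLRMT is the RNA polymerase and TEFM keeps it moving along the template. TFB1M methylates the small ribosomal RNA, and POLG is the catalytic subunit of the DNA polymerase. LRPPRC and its partner SLIRP hold mitochondrial mRNAs in a stable and polyadenylated form, FASTKD4 stabilises a subset of them, and PNPT1 (polynucleotide phosphorylase) degrades them.

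The promoter stretches below are shown because NRF1 and the ETS factor GABPA are textbook regulators of this gene set, and the genes for GABPA and its partner GABPB1 are among those measured here. In promoter windows of 300 bases that end just past each start (RefSeq, GRCh38.p14), the NRF1 motif GCGCANGCG was present in POLRMT, TFAM, TFB2M and TFB1M, 4 of the 10 genes. Both strands were searched. The motif is close to a palindrome, so 1 place can match on both strands with a shift of 1 base. The ETS motif CCGGAAG was present in POLRMT, TEFM, TFB1M, SLIRP and FASTKD4, and the E-box CACGTG was not found in these windows. Of all 27305 such windows, 8.05% held the NRF1 motif, 10.7% the ETS motif and 7.43% the E-box. Among the 11526 windows of genes tested with Fucotrim II these shares were 14.2%, 18.4% and 9.94%. The windows of POLG, LRPPRC and PNPT1 held no match to any of the 3 motifs. The first 4 lines show NRF1 matches and the last 2 show ETS matches, each in capitals and read 5′ to 3′ on the strand of the gene.
TFAM, chr10:58385338-58385366, + strand: cgctctcccgCGCCTGCGCcaattccgcc
TFB2M, chr1:246566262-246566287, - strand: ctccgctgttCGCATGCGCaggctct
POLRMT, chr19:633543-633571, - strand: ggcggcgcggGCGCATGCGcaggcgcggg
TFB1M, chr6:155314598-155314626, - strand: gcaggacttaGCGCATGCGctctcagcac
SLIRP, chr14:77708017-77708043, + strand: accctctgatCCGGAAGcagattctct
FASTKD4, chr7:45111778-45111804, - strand: aaaggtgtggCCGGAAGctggaggcgt
A match describes the letters of the window only.

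The libraries held between 12553094 and 19981453 counts on genes. Each of the 10 genes had between 127 and 3335 counts per library. Values per library are CPM, counts relative to library size after 1 scaling of all 14 libraries (TMM, the trimmed mean of M values), while fold changes come from a fit of each inhibitor with DMSO. Levels are of polyadenylated RNA, since the kit selects mRNA. In bulk libraries fewer cells that express a gene and less RNA per cell cannot be told apart. The 7 luminal prostate markers KLK3, KLK2, HOXB13, FOXA1, KRT8, KRT18 and EPCAM summed to between 1675 and 1781 CPM in DMSO, and to between 2049 and 2473 CPM in the treated libraries. Of 7 markers of other cell types, COL1A1 was at 15.9 to 29.2 CPM over all libraries, and the other 6 (PTPRC, COL1A2, PECAM1, KRT5, TP63 and CHGA) had at most 5 counts in any library. Summed, these 7 markers were at 17.3 to 18.3 CPM in DMSO, 17.3 to 23.6 with Fucotrim I, 23.3 to 29.4 with Fucotrim II, 16.1 to 18.3 with SGN-2FF and 18.1 to 19.99 with P-SiaFNEtoc, and the part of either marker list in the changes below was not tested.

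Divided by the length of the canonical transcript (GENCODE, hg38), the levels of the 10 genes in DMSO ran from SLIRP, at 158 CPM per kb (148.8 to 166 over the 3 libraries), to TFB1M, at 4.01 (3.31 to 4.58). FASTKD4 followed SLIRP at 70.3 CPM per kb. POLRMT (31.0) and TFB2M (27.5) came next, and their libraries overlapped. PNPT1 (25.4), LRPPRC (24.8) and POLG (24.7) could not be separated beyond their spread. TFAM (12.1) and TEFM (11.0) overlapped as well. The annotated SLIRP transcript has only 376 bases, so its value per kb depends more than the others on where reads could be placed.

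The mitochondrial side of the comparison rose with both Fucotrims and with SGN-2FF. The 13 mitochondrial mRNAs took 5.36%, 6.27% and 5.32% of the counts in DMSO. They took 7.85%, 10.7% and 12.8% with Fucotrim I, 15.1% and 10.8% with Fucotrim II, 7.31%, 7.26% and 7.69% with SGN-2FF, and 5.40%, 6.07% and 5.90% with P-SiaFNEtoc. Every library of the 3 fucosylation inhibitors was above every DMSO library, and the P-SiaFNEtoc libraries lay within the DMSO range. The paper reports that both Fucotrims induced apoptosis in this line, and the part of cell death in these shares was not tested. In the quasi-likelihood test of edgeR (p-values adjusted over all genes by the Benjamini-Hochberg method, threshold 0.05), 10 of the 13 mRNAs rose with Fucotrim I, where 21.6% of the 14188 genes tested rose. With Fucotrim II 13 of 13 rose, against 25.6% of 14617 genes, and with SGN-2FF 13 of 13 rose, against 11.5% of 14312 genes. With P-SiaFNEtoc edgeR called 0 of the 13, with 0 at an unadjusted p under 0.05, and DESeq2 and limma-voom also called 0. Of 14259 genes tested with P-SiaFNEtoc, 9.02% were called higher.

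Across the mitochondrial mRNAs the log2 fold change ran from 0.65 (ATP6) to 1.11 (ND1) with Fucotrim I, from 0.98 (ATP6) to 1.62 (ND3) with Fucotrim II, from 0.32 (ATP6) to 0.49 (COX2) with SGN-2FF, and from -0.02 (ATP6) to 0.10 (COX1) with P-SiaFNEtoc. ATP6, whose reading frame overlaps that of ATP8, had the lowest value of the 13 in each comparison. The medians were 1.05, 1.43, 0.45 and 0.04, where the median of all genes was 0.00, 0.01, 0.00 and 0.00. Both ribosomal RNAs rose with Fucotrim II (1.33 for RNR1 and 1.37 for RNR2) and SGN-2FF (0.42 and 0.53). With Fucotrim I they had log2 fold changes of 0.59 and 0.78 and neither passed the test in edgeR, with 1 of 2 at an unadjusted p under 0.05. The Fucotrim I calls depended on single libraries: edgeR called 0 of the 13 mRNAs without DMSO replicate 1 (lowest adjusted p = 0.0610) or DMSO replicate 3 (0.0590), 3 without DMSO replicate 2, and 2 without Fucotrim I replicate 2, while the median log2 fold change stayed between 0.84 and 1.23. DESeq2, limma-voom and a single fit of all 14 libraries each called 13 of 13 with Fucotrim I. For P-SiaFNEtoc, 4 mRNAs were called without DMSO replicate 2 and 1 without P-SiaFNEtoc replicate 1. With SGN-2FF a single fit of all 14 libraries, which also changes the genes tested and the scaling, called 0 of the 13 (lowest adjusted p = 0.0928), with a median log2 fold change of 0.43.

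The nuclear genes as a group did not rise with them. With Fucotrim I, 5 of the 10 fell (TFAM, TFB2M, POLG, LRPPRC and PNPT1), where 22.1% of all genes tested fell, and POLRMT alone rose. With Fucotrim II TFAM, TFB2M, POLG, LRPPRC and PNPT1 fell, again 5 of 10 and against a background of 25.7%, and edgeR called 0 higher, against a background of 25.6%. At an unadjusted p under 0.05 the count was 6, with POLRMT higher, and DESeq2, unlike limma-voom, called POLRMT higher as well (0.25, adjusted p = 0.0456). With SGN-2FF POLG fell, 1 of 10 against a background of 9.08%, and the other 9 did not pass the test. With P-SiaFNEtoc 0 of 10 passed the edgeR test, against backgrounds of 7.33% lower and 9.02% higher; 3 had an unadjusted p under 0.05, and DESeq2 and limma-voom called 0. The median log2 fold change of the 10 was -0.14, -0.22, 0.01 and -0.03 with Fucotrim I, Fucotrim II, SGN-2FF and P-SiaFNEtoc. All 4 comparisons share the DMSO libraries and the doses differ, so their values stand side by side and the inhibitors were not compared with each other.

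**Figure D1:**
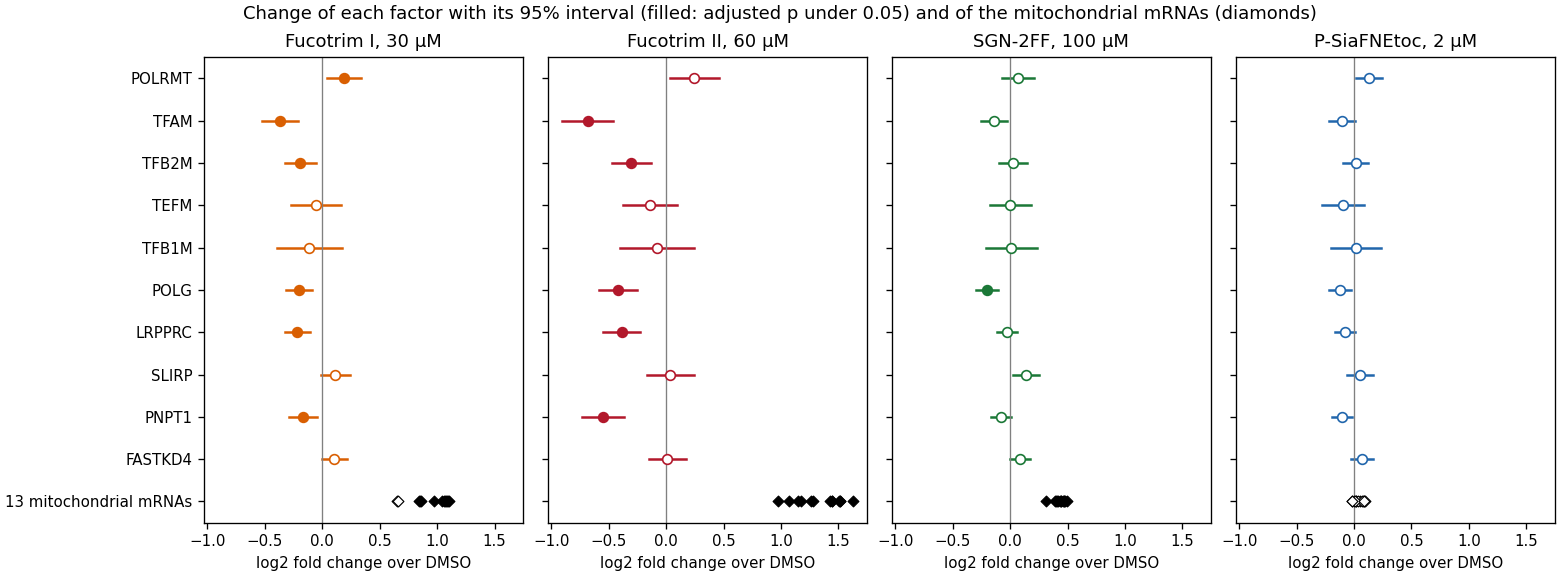
Log2 fold change over DMSO (x axis) of the 10 nuclear genes, with 95% intervals from the edgeR fit, and of the 13 mitochondrial mRNAs (diamonds), 1 panel per inhibitor; filled symbols have an adjusted p under 0.05. TFAM lies at -0.37 with Fucotrim I and -0.68 with Fucotrim II, while the mitochondrial mRNAs lie between 0.65 and 1.62 in those panels.

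TFAM (chr10:58385345-58399220, + strand, hg38 as for the genes that follow), the promoter-binding and packaging protein, had the largest fall of the 10 with both Fucotrims. It was at 62.6, 62.9 and 56.4 CPM in DMSO, at 47.4, 52.1 and 40.6 with Fucotrim I, and at 41.7 and 34.2 with Fucotrim II. All 5 Fucotrim libraries were below the lowest DMSO library. For this gene and those that follow, the share of all tested genes separated from DMSO in this way was not counted. The log2 fold change was -0.37 ± 0.08 (SE) with Fucotrim I (edgeR adjusted p = 0.000626) and -0.68 ± 0.10 with Fucotrim II (adjusted p = 0.000418), which is 0.774 and 0.623 times the DMSO level. Both calls held in all 14 alternatives tried, with log2 fold changes from -0.46 to -0.28 and from -0.83 to -0.55. With SGN-2FF TFAM was at 52.4, 54.0 and 57.7 CPM, and with P-SiaFNEtoc at 59.4, 54.9 and 54.0. These ranges overlap DMSO. Their log2 fold changes were -0.14 (95% interval -0.26 to -0.02, adjusted p = 0.0795) and -0.11 (-0.22 to 0.00, adjusted p = 0.185). The SGN-2FF value was called without DMSO replicate 3 (-0.19, adjusted p = 0.0365) or SGN-2FF replicate 3 (-0.18, adjusted p = 0.0340), and with no filter on low counts (-0.15, adjusted p = 0.0491).

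TFB2M (chr1:246540561-246566261, - strand), the initiation factor, fell less than TFAM in both Fucotrims. DMSO libraries were at 51.4, 48.6 and 47.1 CPM, Fucotrim I libraries at 43.4, 44.2 and 40.9, and Fucotrim II libraries at 41.0 and 38.8. The groups did not overlap. The log2 fold change was -0.19 ± 0.07 with Fucotrim I (edgeR adjusted p = 0.0226) and -0.30 ± 0.08 with Fucotrim II (adjusted p = 0.00809). The Fucotrim I call was lost without DMSO replicate 1 (-0.16, adjusted p = 0.125), without Fucotrim I replicate 3 (-0.15, adjusted p = 0.105) and in DESeq2 (-0.18, adjusted p = 0.0576). SGN-2FF gave 51.7, 51.5 and 45.3 CPM and P-SiaFNEtoc 49.8, 50.7 and 47.6, with log2 fold changes of 0.03 (95% interval -0.10 to 0.15) and 0.01 (-0.10 to 0.12).

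POLRMT (chr19:617221-633537, - strand), the polymerase itself, had a positive log2 fold change with each inhibitor. It was at 127.6, 105.9 and 116.7 CPM in DMSO, 145.4, 122.5 and 130.0 with Fucotrim I, 126.7 and 151.0 with Fucotrim II, 128.6, 124.0 and 111.3 with SGN-2FF, and 126.8, 122.0 and 133.6 with P-SiaFNEtoc. Every treated group overlapped DMSO, whose own libraries had an SD of 10.8 CPM around 116.8. The log2 fold change was 0.19 ± 0.07 with Fucotrim I (edgeR adjusted p = 0.0379), 0.24 ± 0.10 with Fucotrim II (0.0562), 0.07 ± 0.06 with SGN-2FF (0.513) and 0.13 ± 0.05 with P-SiaFNEtoc (0.0960). The Fucotrim I call was lost without DMSO replicate 2 (0.12, adjusted p = 0.181), DMSO replicate 3 (0.18, 0.0900), Fucotrim I replicate 1 (0.12, 0.148) or Fucotrim I replicate 3 (0.20, 0.0718). It was also lost in 1 fit of all 14 libraries (0.18, adjusted p = 0.0737). The Fucotrim II value passed with DESeq2 (adjusted p = 0.0456), all genes left in the fit (0.0498), a minimum of 10 counts per library (0.0481), 1 fit of all 14 libraries (0.0206) and without Fucotrim II replicate 1 (0.36, 0.00276). The P-SiaFNEtoc value passed without DMSO replicate 1 (0.20, adjusted p = 0.00859) and with all genes left in the fit (0.0426). Of the 100-base windows of its transcript, 6.59% also occur in other annotated transcripts, among them the pseudogene POLRMTP1.

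TEFM (chr17:30897336-30906238, - strand), the elongation factor, and TFB1M (chr6:155256134-155314493, - strand), the ribosomal RNA methylase, were the least abundant of the 10 and passed the test with no inhibitor. TEFM was at 13.8, 15.5 and 13.7 CPM in DMSO, 12.5, 13.6 and 15.6 with Fucotrim I, 12.9 and 13.2 with Fucotrim II, 14.7, 13.9 and 14.4 with SGN-2FF, and 13.5, 12.6 and 14.2 with P-SiaFNEtoc. Its Fucotrim II libraries were just below DMSO, with a log2 fold change of -0.15 (95% interval -0.38 to 0.09). TFB1M was at 12.8, 11.6 and 9.27 CPM in DMSO, 10.8, 8.58 and 12.1 with Fucotrim I, 11.1 and 10.2 with Fucotrim II, 11.4, 11.0 and 11.5 with SGN-2FF, and 11.5, 10.7 and 11.9 with P-SiaFNEtoc. Its 95% interval with Fucotrim II, -0.41 to 0.24, is wide enough to hold the fall of TFB2M. Of the TFB1M transcript, 45.2% lies opposite TIAM2 and 21.1% is shared on the same strand with an unnamed gene, and 38.1% of the TEFM transcript lies opposite another gene, so reads there could count for a neighbour or be left out.

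POLG (chr15:89305198-89334861, - strand), the DNA polymerase, was the member called in 3 of the 4 comparisons. DMSO libraries were at 114.9, 106.3 and 109.2 CPM. Fucotrim I gave 96.0, 91.8 and 98.3, Fucotrim II 78.1 and 87.2, SGN-2FF 95.8, 96.8 and 92.7, and P-SiaFNEtoc 95.8, 104.7 and 102.5. All 11 treated libraries were below the lowest DMSO library. The log2 fold change was -0.20 ± 0.05 with Fucotrim I (edgeR adjusted p = 0.00487), -0.42 ± 0.07 with Fucotrim II (0.00116), -0.20 ± 0.05 with SGN-2FF (0.00267) and -0.12 ± 0.05 with P-SiaFNEtoc (0.0645). The first 3 calls held in all 14 alternatives, and the P-SiaFNEtoc value passed without DMSO replicate 2 (-0.15, adjusted p = 0.0340) and with no filter on low counts (-0.13, adjusted p = 0.0492). On the same strand, 17.5% of the POLG transcript is also annotated as POLGARF, a second reading frame of the same mRNA, and 9.66% lies opposite FANCI.

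**Figure D2:**
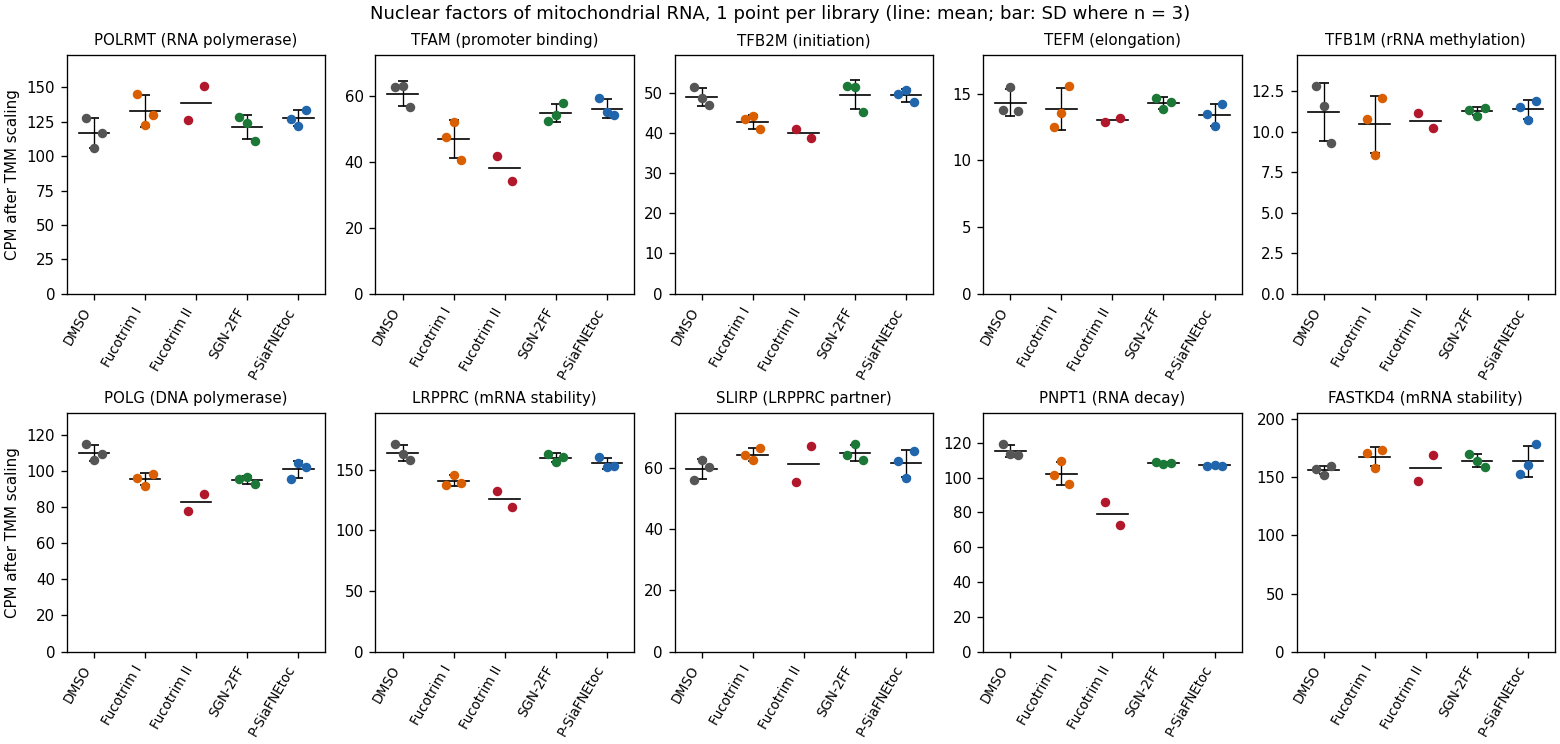
Level of each of the 10 nuclear genes in every library (y axis, CPM after TMM scaling, from 0), by group on the x axis; the line is the mean and the bar the SD of groups with 3 libraries. TFAM, TFB2M, POLG, LRPPRC and PNPT1 lie below all DMSO libraries in the 5 Fucotrim libraries, and POLRMT, SLIRP and FASTKD4 overlap DMSO there. The share of all tested genes that lie below DMSO in this way was not counted.

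LRPPRC (chr2:43886224-43996226, - strand), the mRNA-stabilising protein, fell with both Fucotrims, and its partner SLIRP was not called. LRPPRC was at 171.0, 163.2 and 157.8 CPM in DMSO, 137.5, 145.9 and 139.0 with Fucotrim I, and 132.6 and 119.3 with Fucotrim II. All 5 Fucotrim libraries were below DMSO. The log2 fold change was -0.22 ± 0.05 with Fucotrim I (edgeR adjusted p = 0.00203) and -0.39 ± 0.07 with Fucotrim II (adjusted p = 0.00176), and both calls held in all 14 alternatives. With SGN-2FF LRPPRC was at 163.2, 156.1 and 160.3 CPM (log2 fold change -0.03, 95% interval -0.11 to 0.06) and with P-SiaFNEtoc at 160.4, 152.0 and 152.9 (-0.08, -0.16 to 0.01).

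SLIRP (chr14:77708071-77761104, + strand) was at 55.9, 62.5 and 60.1 CPM in DMSO, 64.0, 62.4 and 66.3 with Fucotrim I, 55.3 and 67.0 with Fucotrim II, 64.1, 67.6 and 62.6 with SGN-2FF, and 62.2, 56.7 and 65.3 with P-SiaFNEtoc. Only the SGN-2FF libraries were all above DMSO, by a margin smaller than the spread of either group. The log2 fold changes were 0.11 ± 0.06, 0.03 ± 0.09, 0.14 ± 0.05 and 0.05 ± 0.06 in that order, and the SGN-2FF value (edgeR adjusted p = 0.0715) passed without DMSO replicate 2 (0.17, adjusted p = 0.0316). For Fucotrim II the 95% interval, -0.17 to 0.24, does not reach the LRPPRC value of -0.39.

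PNPT1 (chr2:55634061-55693863, - strand), the degrading enzyme, had the next largest fall after TFAM with Fucotrim II. It was at 119.3, 113.9 and 112.9 CPM in DMSO, 101.4, 109.4 and 96.1 with Fucotrim I, and 85.8 and 72.7 with Fucotrim II. The log2 fold change was -0.17 ± 0.06 with Fucotrim I (edgeR adjusted p = 0.0212) and -0.55 ± 0.08 with Fucotrim II (adjusted p = 0.000518). The Fucotrim I call was lost without DMSO replicate 1 (-0.14, adjusted p = 0.103) or Fucotrim I replicate 3 (-0.12, adjusted p = 0.135), and the Fucotrim II call held in all 14 alternatives. SGN-2FF libraries were at 108.9, 108.1 and 108.4 CPM and P-SiaFNEtoc libraries at 107.0, 107.3 and 107.0. These 6 values are all below DMSO and close to each other, with log2 fold changes of -0.08 ± 0.04 and -0.10 ± 0.04 that did not pass the test (adjusted p = 0.216 and 0.0941).

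FASTKD4 (chr7:45100100-45112047, - strand), which stabilises some mitochondrial mRNAs, was not called with any inhibitor. It was at 157.3, 152.2 and 159.6 CPM in DMSO, 171.4, 158.5 and 173.6 with Fucotrim I, 147.2 and 169.1 with Fucotrim II, 170.2, 164.0 and 159.2 with SGN-2FF, and 152.9, 160.3 and 178.7 with P-SiaFNEtoc. All 4 treated groups overlapped DMSO. The log2 fold changes were 0.10, 0.01, 0.08 and 0.07, with SEs of 0.04 to 0.07. The Fucotrim I value passed without Fucotrim I replicate 2 (0.14, edgeR adjusted p = 0.0193).

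Set against each other in single libraries, the mitochondrial side gained on the nuclear side with the Fucotrims and SGN-2FF. With P-SiaFNEtoc all libraries lay within the DMSO range. There were 58.8, 72.2 and 60.9 mitochondrial mRNA counts per count of the 10 nuclear genes in DMSO. This ratio, which does not depend on how libraries are scaled, was 94.1, 134 and 166 with Fucotrim I, 226 and 153 with Fucotrim II, 84.5, 84.5 and 92.0 with SGN-2FF, and 61.8, 70.9 and 67.1 with P-SiaFNEtoc. Its mean was 2.05 times that of DMSO with Fucotrim I, 2.96 times with Fucotrim II, 1.36 times with SGN-2FF and 1.04 times with P-SiaFNEtoc. In the same order, the share of all counts on the mitochondrial mRNAs was 1.85, 2.30, 1.31 and 1.02 times that of DMSO, and the share on the 10 genes was 0.908, 0.778, 0.966 and 0.983 times. A larger mitochondrial share lowers the share of every other gene. The fold changes were scaled by TMM with and without the mitochondrially encoded genes, so leaving these genes out of the fit could change little. The numbers of called members were then 6, 5, 1 and 0, with TFAM at -0.36 and -0.68 with the Fucotrims. The part of the mitochondrial share in the falls was not tested.

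**Figure D3:**
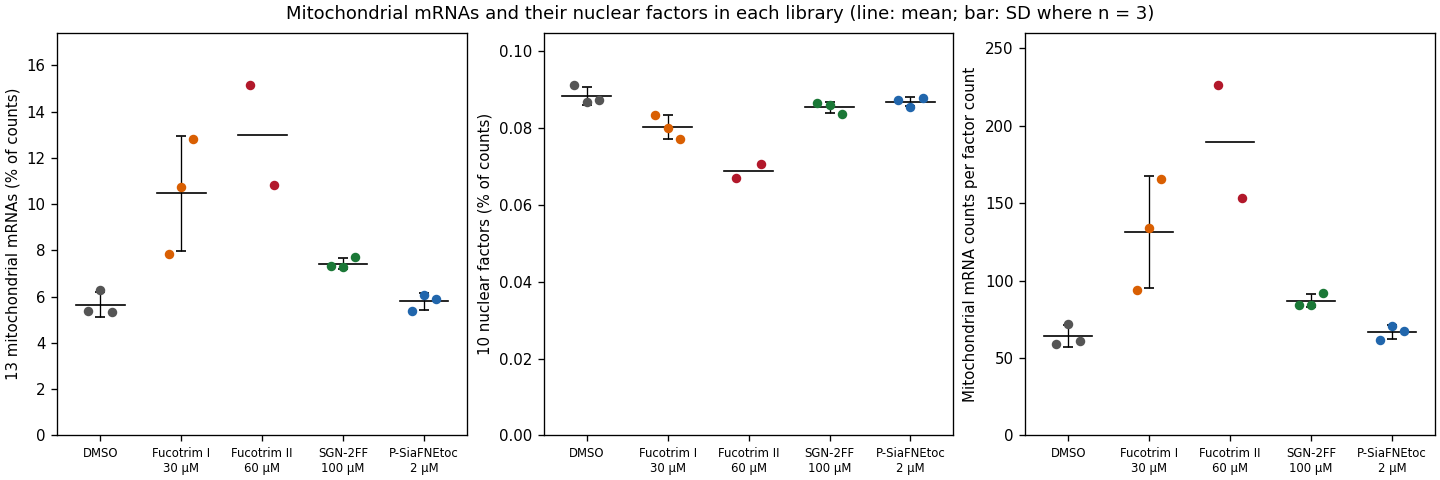
Share of all counts on the 13 mitochondrial mRNAs (left, %), share on the 10 nuclear genes (middle, %) and mitochondrial mRNA counts per nuclear factor count (right) in each library; the line is the mean and the bar the SD of groups with 3 libraries, and each y axis starts at 0. The Fucotrim libraries range from 94.1 to 226 in the right panel, above the DMSO range of 58.8 to 72.2.

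The libraries within a group did not order the same way in both Fucotrims. With Fucotrim I the library with the largest mitochondrial share (replicate 3, 12.8%) had the lowest TFAM (40.6 CPM), TFB2M and PNPT1 of the group, the highest POLG (98.3 CPM), and LRPPRC and POLRMT between the other two libraries. With Fucotrim II the library with the larger share (replicate 1, 15.1%) had the higher TFAM (41.7 against 34.2 CPM), TFB2M, LRPPRC and PNPT1, and the lower POLG and POLRMT. A relation within groups was not tested.

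A list of 40 further nuclear genes for mitochondrial DNA and RNA places the 10 in their pathway. Of these, 38 passed the filter; PPARGC1A (3 to 12 counts per library) and MRM1 (1 to 12) did not. With Fucotrim I 8 of the 38 fell and 4 rose, where 22.1% and 21.6% of all genes did. With Fucotrim II 17 fell and 5 rose, against 25.7% and 25.6%. With SGN-2FF 2 fell and 2 rose, against 9.08% and 11.5%, and with P-SiaFNEtoc 3 fell and 2 rose, against 7.33% and 9.02%. The median log2 fold changes were -0.08, -0.21, 0.02 and -0.06. The 38 were not tested as a set.

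The FASTK family, RNA-binding relatives of FASTKD4, split with Fucotrim II. FASTK itself rose, from a mean of 169.6 to 250.8 CPM (log2 fold change 0.56 ± 0.06, edgeR adjusted p = 8.22e-05), while FASTKD1, FASTKD2, FASTKD3 and FASTKD5 fell, with log2 fold changes of -0.42, -0.39, -0.44 and -0.24. FASTK rose with Fucotrim I (0.40 ± 0.05, adjusted p = 4.79e-06) and SGN-2FF (0.14 ± 0.04, adjusted p = 0.0166) too. FASTKD1, FASTKD2, FASTKD3 and FASTKD5 did not pass the test with those 2 inhibitors. The FASTK call with SGN-2FF was lost in a single fit of all 14 libraries, which called 0 of these further nuclear genes higher and 1 lower.

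Among the nuclear regulators of the machinery, both subunits of the ETS factor GABP fell with the Fucotrims. NRF1 itself was not called, with log2 fold changes of -0.08 with Fucotrim I (95% interval -0.23 to 0.07), -0.05 with Fucotrim II (-0.25 to 0.15), 0.00 with SGN-2FF and 0.01 with P-SiaFNEtoc. GABPA was at 43.5, 47.5 and 41.5 CPM in DMSO, 32.1, 37.3 and 35.5 with Fucotrim I, and 31.2 and 26.6 with Fucotrim II. GABPB1 was at 34.4, 36.9 and 36.1 CPM in DMSO, 26.0, 29.4 and 28.1 with Fucotrim I, and 24.4 and 20.8 with Fucotrim II. Neither gene's Fucotrim libraries overlapped DMSO. The log2 fold changes of GABPA were -0.33 ± 0.07 and -0.62 ± 0.10 (edgeR adjusted p = 0.00111 and 0.000685), and those of GABPB1 were -0.36 ± 0.07 and -0.67 ± 0.09 (0.000512 and 0.000343). The promoter windows of TFAM, TFB2M, POLG, LRPPRC and PNPT1, which fell with both Fucotrims, did not hold the exact letters CCGGAAG. Other forms of an ETS site were not searched for, so this does not tell whether GABP can bind there. A link between GABP and these genes was not tested. The nuclear receptor ESRRA rose with Fucotrim I (0.25), Fucotrim II (0.42) and P-SiaFNEtoc (0.18, edgeR adjusted p = 0.0393). Its P-SiaFNEtoc call was lost in a single fit of all 14 libraries, which called 0 of these further nuclear genes. PPARGC1B fell with Fucotrim II (-0.27, adjusted p = 0.0375), and PPRC1 was not called with either Fucotrim (0.05 and 0.06).

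In transcript processing, PTCD2 had the largest fall of the 38 with Fucotrim II, from a mean of 12.2 to 7.41 CPM (log2 fold change -0.72 ± 0.16, edgeR adjusted p = 0.00412). PTCD1 rose with Fucotrim I (0.41 ± 0.15, adjusted p = 0.0323) and Fucotrim II (0.66 ± 0.16, adjusted p = 0.00814) from a DMSO mean of 5.64 and 5.53 CPM on the scales of the 2 fits. On the same strand, 43.0% of the PTCD1 transcript is shared with the read-through gene ATP5MF-PTCD1. TRMT10C, a subunit of mitochondrial RNase P, fell with both Fucotrims (-0.28 and -0.35), and its nuclease subunit PRORP fell with Fucotrim II (-0.38).

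MTERF4, which acts in mitochondrial ribosome assembly, was the factor called with all 4 inhibitors. Its log2 fold change was -0.29 ± 0.07 with Fucotrim I, -0.28 ± 0.08 with Fucotrim II, -0.23 ± 0.05 with SGN-2FF and -0.15 ± 0.05 with P-SiaFNEtoc (edgeR adjusted p = 0.00139, 0.0134, 0.00152 and 0.0262). The P-SiaFNEtoc and SGN-2FF calls in this paragraph depended on the method. A single fit of all 14 libraries called 0 of the 38 genes with P-SiaFNEtoc, and DESeq2 called 2. With SGN-2FF the single fit called 1 lower and 0 higher, and DESeq2 called 1 lower and 2 higher. MRPL12, a ribosomal protein reported to bind POLRMT, rose with Fucotrim I (0.23 ± 0.05), SGN-2FF (0.17 ± 0.05) and P-SiaFNEtoc (0.17 ± 0.04), and 69.5% of its annotated transcript is shared with another gene on the same strand. PDE12, which removes poly(A) from mitochondrial mRNAs, fell with Fucotrim I (-0.16 ± 0.06, adjusted p = 0.0218), Fucotrim II (-0.46 ± 0.07, adjusted p = 0.000646) and SGN-2FF (-0.14 ± 0.05, adjusted p = 0.0428). With P-SiaFNEtoc the largest falls were those of POLG2, the accessory subunit of POLG (-0.37 ± 0.10, adjusted p = 0.00698), and MTERF3, a repressor of mitochondrial transcription (-0.22 ± 0.06, adjusted p = 0.0173). POLG2 rose with Fucotrim II (0.34 ± 0.12, adjusted p = 0.0407).

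**Figure D4:**
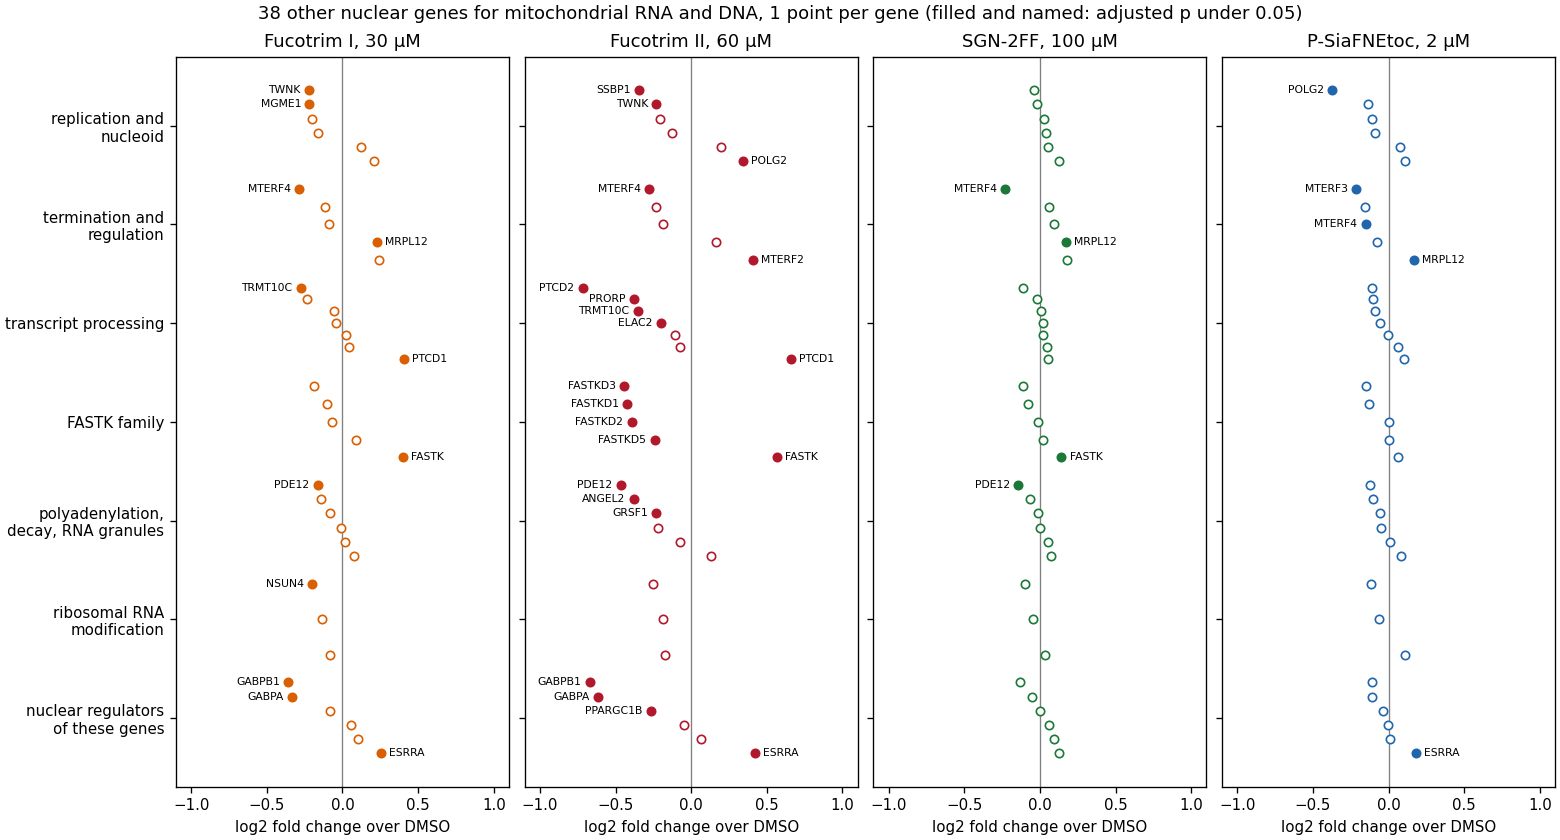
Log2 fold change over DMSO (x axis) of the 38 other nuclear genes for mitochondrial DNA and RNA, by role on the y axis and 1 panel per inhibitor; filled, named points have an adjusted p under 0.05. With Fucotrim II 17 points are filled on the left and 5 on the right, against 2 and 2 with SGN-2FF and 3 and 2 with P-SiaFNEtoc.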

How the data were processed

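Cells of 1 line were lysed after 72 h and TruSeq stranded mRNA libraries were sequenced as single reads. Reads were trimmed with Cutadapt, mapped to hg38 with HISAT2 and assigned to genes with featureCounts in Galaxy, and the authors deposited raw counts in 4 tables, 1 per inhibitor, with the same DMSO libraries in each (0 of the 27819 shared genes had other DMSO counts). The annotation release, strand setting and handling of multi-mapped reads are not given in the sources used here. For Fucotrim II, 2 libraries were analysed here.

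Each inhibitor was fitted alone with DMSO in edgeR 4.0.16 (R 4.3.3; filterByExpr with minimum count 10 and total 15, TMM, robust quasi-likelihood test, Benjamini-Hochberg over all genes, adjusted p under 0.05); standard errors came from the fold change and its F statistic, intervals are at 95%. Values per library use 1 TMM scaling of all 14 libraries. DESeq2 1.42.0, limma-voom (limma 3.58.1), other filters, scalings and sample sets were alternatives. The fits were tested on simulated data. The 10 genes and all lists were chosen with earlier results of these data known. Named were the 10 genes, the highest and lowest mitochondrial mRNA, and the 2 largest rises and falls among called other factors per inhibitor; FASTKD1, FASTKD2, FASTKD3, FASTKD5, TRMT10C, PRORP, NRF1, PPARGC1B, PPRC1 and further values of named genes were added after their values were seen. Promoter windows are from RefSeq (GRCh38.p14; all 10 genes matched) and gene models from GENCODE on hg38. Some genes of the luminal marker list are not reported here.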

Additional observations from a re-analysis of the deposited data

How the results depend on the processing

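Of 560 values of single members under the alternatives, 532 kept their side of the threshold, 11 calls were lost and 17 were gained, and none of the called values changed sign. An adjusted p under 0.01 left 3 members and 0 mitochondrial mRNAs with Fucotrim I, and 12, 2 and 2 other factors with Fucotrim II, SGN-2FF and P-SiaFNEtoc. With no filter on low counts 2 members were called with SGN-2FF and 2 with P-SiaFNEtoc, and 5 mitochondrial mRNAs with Fucotrim I. A single fit of all 14 libraries called 0 mitochondrial mRNAs and 1 other factor with SGN-2FF and 0 other factors with P-SiaFNEtoc, and DESeq2 called 2 of the latter. The cause was not tested. With Fucotrim I, II, SGN-2FF and P-SiaFNEtoc, leaving out 1 library gave 3 to 7, 5 to 6, 1 to 2 and 0 to 1 members, 0 to 13, 13 to 13, 10 to 13 and 0 to 4 mitochondrial mRNAs, and 10 to 13, 15 to 26, 1 to 4 and 2 to 6 other factors. With 1 Fucotrim II library left, it is assumed to vary like DMSO.

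Whether replicate numbers pair the libraries was not settled. Deviations of same-numbered libraries correlated at 0.17, 0.18 and 0.02 with Fucotrim I, where differently numbered pairs ran from -0.22 to 0.06. With SGN-2FF and P-SiaFNEtoc same-numbered libraries correlated below 0.1. As a replicate block the numbers left 3 mitochondrial mRNAs with Fucotrim I and 14 other factors with Fucotrim II. In edgeR this block ended the TFB2M call with Fucotrim II (adjusted p = 0.0610). It called FASTKD4 with Fucotrim I (0.0274) and 1 member, POLRMT, with P-SiaFNEtoc (0.0343). For Fucotrim II the correlations were -0.20 and -0.28 by title, and 0.28 and 0.09 by library name. With the latter numbers as a replicate block 6 members, POLRMT (0.000824) among them, and 21 other factors were called. Over all genes, the block changed the number called from 6209 to 7288 with Fucotrim I and from 2331 to 2674 with P-SiaFNEtoc. With SGN-2FF it went from 2946 to 2868. With Fucotrim II it went from 7511 to 5300 by title and to 7779 by library name.

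Low counts limit TEFM and TFB1M most, whose intervals are the widest of the 10. Intervals cover the spread between these libraries only.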
